A study of Mus musculus with 24 samples.

Results

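Ribosome quality control and mRNA surveillance factors were taken from a polysome sequencing table of mouse embryonic stem cells as the rows whose gene name was on a list of 47 symbols, and all 47 were found among 13504 genes. The list covers sensing of collided ribosomes, rescue and recycling of stalled ribosomes, quality control on the 60S subunit, the SKI complex, translation termination, nonsense-mediated decay (NMD) and the exon junction complex. The rule itself uses no measured value. The question addressed was whether depletion of RACK1, a protein of the 40S subunit that takes part in signalling from collided ribosomes, was accompanied by a different amount or ribosome loading of the mRNAs of this machinery.

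The cells were E14 embryonic stem cells, an established mouse line, in which RACK1 carried an auxin-inducible degron (AID) in every group, controls included. The plant F-box receptor TIR1 was fused to RPS26, a 40S ribosomal protein, in the Rps26Tir1 line, whereas the FreeTir1 control carried it unfused. Both lines received indole-3-acetic acid (IAA), the auxin that brings a tagged protein to TIR1, or DMSO for 12 h, and polyadenylated RNA was sequenced from free mRNA, low translation and heavy translation fractions. The 24 libraries form 12 groups with 2 replicates each. FreeTir1 is a control for the fusion of TIR1 to RPS26 and cannot be read as a line without depletion. No group lacks TIR1 or the degron, so an effect of IAA itself cannot be told apart from depletion of RACK1 in either line. Nothing in the labels tells whether a line was derived from a single clone, which promoter drove TIR1, or whether the replicates were separate cultures, so p-values measure no more than the spread among libraries.

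The values used were comparisons of IAA with DMSO made by the authors for each line, with a log fold change read as log2, an average expression over the libraries, a p-value and an adjusted p. No value per library or per fraction was used here, so the depth behind each gene is unknown. A change in mRNA amount, a change in its distribution over fractions and a change in the number of cells cannot be told apart. The header names no numerator, so fold changes are called positive or negative; positive would be higher with IAA under the usual order. Standard errors and 95% intervals were worked back from the p-values with 29 estimated degrees of freedom. All 10 embryonic stem cell markers examined were in the table, with average expression from 6.13 to 10.77 in the authors' deposited table. Of 8 fibroblast feeder markers, 3 were in the table, at 0.15 to 3.53. These were Col1a1, Thy1 and Pdgfrb, which stood at -1.42, -0.28 and 0.38 for Rps26Tir1 in the authors' deposited table. All 3 had an unadjusted p under 0.05 there, and Col1a1 alone passed after adjustment, with adjusted p = 0.0254. Primitive endoderm and neural markers had average expression at or below 4.03 except Sparc at 6.17. The part of other cell types in the values below was not tested. Rack1 and Rps26 mRNA had adjusted p of 0.892 and 0.843 for Rps26Tir1 in the authors' deposited table, and mRNA levels do not check a depletion that acts on protein.

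When a ribosome stalls and the next one runs into it, the collision is recognised by the ubiquitin ligase ZNF598 (Zfp598 in mouse), by EDF1 and by the kinase ZAK (Map3k20), and RACK1 sits close to the interface of the collided 40S subunits. The ASC-1 complex pulls the leading ribosome apart, Pelota and HBS1L act on ribosomes with an empty or unreadable A site, and the listerin and NEMF proteins process the 60S subunit that still holds the nascent chain. NMD is a separate translation-dependent pathway in which UPF1 and the SMG proteins degrade mRNAs with a premature or otherwise aberrant stop codon, often marked by an exon junction complex downstream of it.

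None of the 47 members passed adjusted p of 0.05 in either line. In the Rps26Tir1 line, 6 members (12.8%) had an unadjusted p under 0.05 in the authors' deposited table, against 16.3% of all genes; 4 were positive and 2 negative, where all genes gave 9.55% and 6.72%. At adjusted p of 0.05 the share of all genes was 1.64%. In the FreeTir1 line 2 members (4.26%) had an unadjusted p under 0.05 in the authors' deposited table, against 6.69% of all genes. These were Smg8 with a positive and Zfp598 with a negative value, where all genes gave 2.72% and 3.98%, and 0.0% of all genes passed adjusted p of 0.05. These shares of members were near or below the background, so the counts do not set the machinery apart from other genes. The difference between the lines (Rps26Tir1 minus FreeTir1) was examined by a two-sided test on the worked-back standard errors. It had an unadjusted p under 0.05 for 0 of 47 members, against 6.18% of all genes (4.15% positive and 2.03% negative). After Benjamini-Hochberg adjustment 0.00741% of all genes passed. The unadjusted shares were lower among the 8633 genes with average expression of 3 or more. There they were 14.4% for Rps26Tir1, 5.27% for FreeTir1 and 2.99% for the difference.

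The intervals give a range for each fold change under the authors' unnamed model and the worked-back errors. They reflect only the spread among libraries, so they do not strictly bound an effect of the treatment. Because the fractions that entered the fold change are not named, a shift between fractions might leave it unchanged. No bound on ribosome loading follows. In the Rps26Tir1 line the 95% interval lay wholly between -0.5 and 0.5 on the log2 scale for 41 of 47 members (87.2%), against 62.8% of all genes and 85.9% of the 8633 genes whose average expression was 3 or more. In the FreeTir1 line it did so for 44 members (93.6%), against 69.1% of all genes and 92.9% of those 8633. For the difference between the lines it did so for 34 members (72.3%), against 46.6% and 69.8%. The members' standard errors ran from 0.0894 to 0.161 for Rps26Tir1, and their median was 0.119. Their median fold change was 0.07 in that line and 0.04 in the FreeTir1 line in the authors' deposited table, beside 0.01 and -0.0044 over all genes. Positive values were held by 27 of 47 members for Rps26Tir1 and 28 for FreeTir1 in the authors' deposited table, and 53.0% and 48.6% of all genes were positive. For the difference between the lines 24 members were positive, against 54.1% of all genes.

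**Figure D1:**
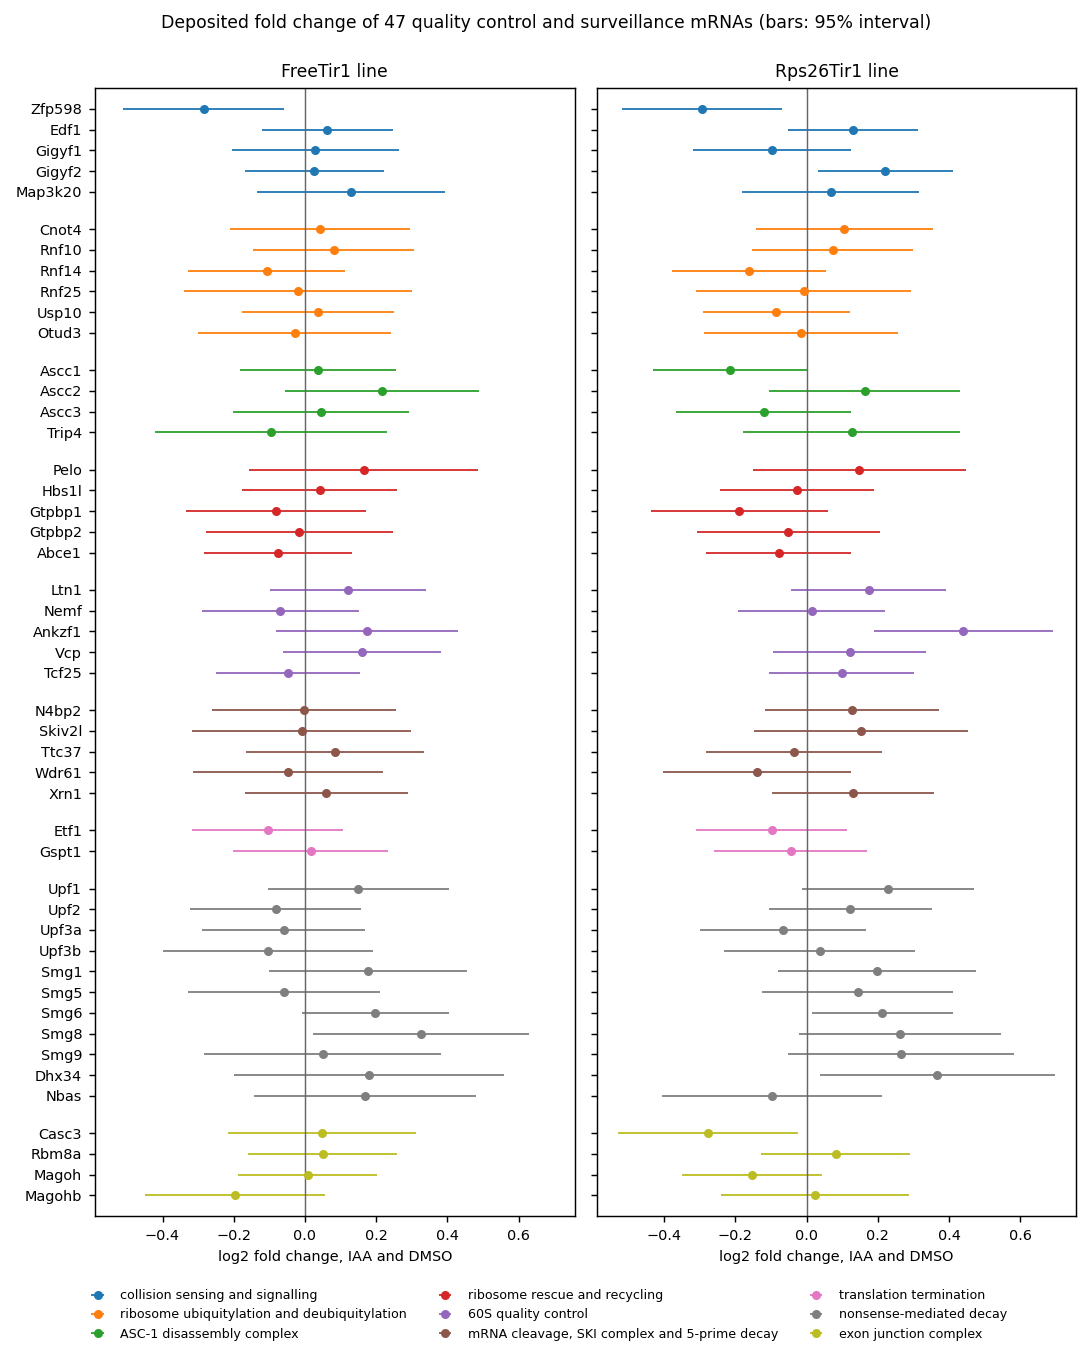
Deposited log2 fold change of each of the 47 members (points) with the 95% interval worked back from its p-value (bars), in the FreeTir1 line (left) and the Rps26Tir1 line (right), coloured by role. Ankzf1 at 0.44 and Dhx34 at 0.37 were the highest in the Rps26Tir1 line, and Zfp598 was the lowest in both lines, at -0.28 and -0.29.

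The 6 members with an unadjusted p under 0.05 in the Rps26Tir1 line were Ankzf1, Dhx34, Gigyf2 and Smg6 with positive values and Zfp598 and Casc3 with negative ones. The surroundings of their start codons are shown because polysome fractions separate mRNAs by how many ribosomes have initiated on them. Each line gives the 10 bases before and after the annotated start codon, with that codon in capitals, in the transcript the authors' deposited table names for the gene, read from GENCODE M21 (GRCm38).
Ankzf1: ctgcgtggggATGgccaaaccgg
Dhx34: gataggaaccATGcctcctccca
Gigyf2: acggagaagaATGgcagcagaaa
Smg6: cgccgcgaagATGgcggaggggt
Zfp598: gagcccggccATGgcggcggcgg
Casc3: tctccgtaagATGgcggaccggc
All 6 have A or G as the third base before the codon, and all but Dhx34 have G just after it, which are the favoured bases of the Kozak context. The same held for 91.1% and 55.6% of the 45 members examined, and for 86.1% and 52.7% of the 13033 genes of the table with an annotated start codon and enough sequence. At the third base before the codon Ankzf1 and Zfp598 have G, while Dhx34, Gigyf2, Smg6 and Casc3 have A. The negative members are Zfp598 and Casc3 alone, too few for a comparison with the positive ones.

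Among the collision sensors, Zfp598 had the largest absolute value in each line. ZNF598 ubiquitylates 40S proteins at the interface of collided ribosomes and so starts their disassembly. Zfp598 (chromosome 17, 24669687 to 24682016, GRCm38) stood at -0.28 for FreeTir1 and -0.29 for Rps26Tir1 in the authors' deposited table. The adjusted p-values in the authors' deposited table were 0.548 and 0.156. Between the lines it differed by -0.0091 with a standard error of 0.156, and its 95% interval ran from -0.33 to 0.31. The 2 lines thus gave nearly the same value, and neither passed over all genes.

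Gigyf2, whose protein joins with 4EHP to block initiation on mRNAs with collided ribosomes, stood at 0.22 for Rps26Tir1 and 0.03 for FreeTir1 in the authors' deposited table. Its adjusted p was 0.213 in the former; with the length trend removed the value was 0.14 and adjusted p = 0.533, and the unadjusted call was lost. For Gigyf2 the difference between the lines was 0.19 with an interval from -0.08 to 0.47. Its relative Gigyf1 was at -0.10 for Rps26Tir1 in the authors' deposited table (adjusted p = 0.697). The 95% intervals in that line ran from 0.03 to 0.41 for Gigyf2 and from -0.32 to 0.12 for Gigyf1. Whether the pair differed was not tested. Edf1, encoding a factor that binds collided ribosomes and recruits the GIGYF2 and 4EHP proteins, was at 0.06 and 0.13 in the FreeTir1 and Rps26Tir1 lines of the authors' deposited table. Map3k20, the gene of the ribotoxic stress kinase ZAK, was at 0.13 and 0.07 in the same columns of the authors' deposited table. The intervals of Edf1 and Map3k20 included 0 in both lines. Edf1 is uncertain, since 23.3% of its 31-base stretches occur in transcripts of other genes.

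Enzymes that place or remove ubiquitin on stalled ribosomes had values on both sides of 0. The 6 genes ran from -0.16 to 0.11 in the Rps26Tir1 line and from -0.11 to 0.08 in the FreeTir1 line of the authors' deposited table, and 0 of 6 had an unadjusted p under 0.05 in either. Rnf10, the ligase for ribosomal proteins uS3 and uS5, stood at 0.07, and Usp10, the deubiquitinase that acts on 40S proteins, at -0.09 for Rps26Tir1 in the authors' deposited table. Otud3, a deubiquitinase, was at -0.01 there. Rnf14 and Rnf25, ligases that act on translation factors trapped on stalled ribosomes, were at -0.16 and -0.0085 for Rps26Tir1 in the authors' deposited table, and Cnot4, the ligase associated with the CCR4-NOT complex, at 0.11. All 6 had intervals wholly between -0.5 and 0.5 in both lines and in the difference between them.

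The ASC-1 complex, a helicase assembly that dissociates the leading ribosome of a collision, had members on both sides of 0. Ascc1 stood at -0.22 for Rps26Tir1 in the authors' deposited table (adjusted p = 0.298), just outside the count of 6 above, and at 0.04 in the FreeTir1 line. Ascc3, the helicase, was at -0.12, Ascc2, its ubiquitin-binding partner, at 0.16 and Trip4 at 0.13 for Rps26Tir1 in the authors' deposited table. None of these had an unadjusted p under 0.05. The difference between the lines was largest in absolute size for Ascc1, at -0.25 with an interval from -0.56 to 0.05.

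Rescue and recycling factors had intervals that included 0 in both lines, for 5 of 5 genes. Pelo, the rescue factor related to eRF1, stood at 0.15, and its GTPase partner Hbs1l at -0.03 for Rps26Tir1 in the authors' deposited table. Abce1, the ATPase that splits ribosomes after termination or rescue, was at -0.08 in both lines of the authors' deposited table. Gtpbp1 and Gtpbp2, GTPases related to HBS1L, were at -0.19 and -0.05 for Rps26Tir1 in the authors' deposited table. The difference between the lines was negative for 5 of 5, where 54.1% of all genes were positive. Its values ran from -0.11 for Gtpbp1 to -0.0035 for Abce1, with a median of -0.04, and its intervals all included 0. Pelo is uncertain, since 67.1% of its transcript lies over exons of other gene models and 43.4% of its 31-base stretches occur in transcripts of other genes. The share was 14.4% for Hbs1l.

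Factors of 60S quality control were positive for 5 of 5 genes in the Rps26Tir1 line, and for 4 of 5 (all but Nemf) once the trend of the fold change with transcript length was removed, where 53.0% of all genes were positive as deposited. Ankzf1 had the largest fold change of the 47 members. ANKZF1 releases the nascent chain from the tRNA on the split 60S subunit. Ankzf1 (chromosome 1, 75192151 to 75199387, GRCm38) stood at 0.44 for Rps26Tir1 in the authors' deposited table, with an interval from 0.19 to 0.69 and adjusted p = 0.0581. Under the other ways of adjusting or centring, its adjusted p lay between 0.0612 and 0.0704. For FreeTir1 it was at 0.17 in the authors' deposited table (adjusted p = 0.832), and the difference between the lines was 0.27 with an interval from -0.09 to 0.62. Exons of Atg9a and Glb1l on the other strand cover 18.7% of the Ankzf1 transcript, and whether the counting used strand is not given in the sources used here. Atg9a stood at -0.04 and Glb1l at 0.22 for Rps26Tir1 in the authors' deposited table, the latter with a standard error of 0.430.

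The remaining 60S factors had smaller values. Ltn1, the ligase listerin, stood at 0.17, and Nemf, which adds tails of alanine and other residues to the stalled chain, at 0.01 for Rps26Tir1 in the authors' deposited table. Vcp, the ATPase that extracts the ubiquitylated chain, was at 0.12, and Tcf25, a cofactor of listerin, at 0.10 for Rps26Tir1 in the authors' deposited table. With free TIR1, 3 of the 5 were positive, against 48.6% of all genes. The median was 0.12 in both lines of the authors' deposited table. Removing the length trend left 0.04 for FreeTir1 and 0.11 for Rps26Tir1. The related gene Vcp-rs holds 64.7% of all 31-base stretches found in the Vcp transcript, so its value is uncertain.

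The SKI complex, which threads mRNA into the exosome from its 3′ side, and the nucleases that act with it showed no common direction. Skiv2l, the helicase, stood at 0.15, Ttc37, the scaffold, at -0.03 and Wdr61, the third subunit, at -0.14 for Rps26Tir1 in the authors' deposited table. N4bp2, an endonuclease-domain protein whose relatives in yeast and worm cleave mRNA at collided ribosomes, and Xrn1, the 5′ to 3′ exonuclease, were each at 0.13 for Rps26Tir1 in the authors' deposited table. The release factor genes Etf1 and Gspt1, encoding eRF1 and eRF3a, were at -0.10 and -0.05 in the Rps26Tir1 line and at -0.10 and 0.02 in the FreeTir1 line of the authors' deposited table. All 7 had intervals between -0.5 and 0.5 in both lines.

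**Figure D2:**
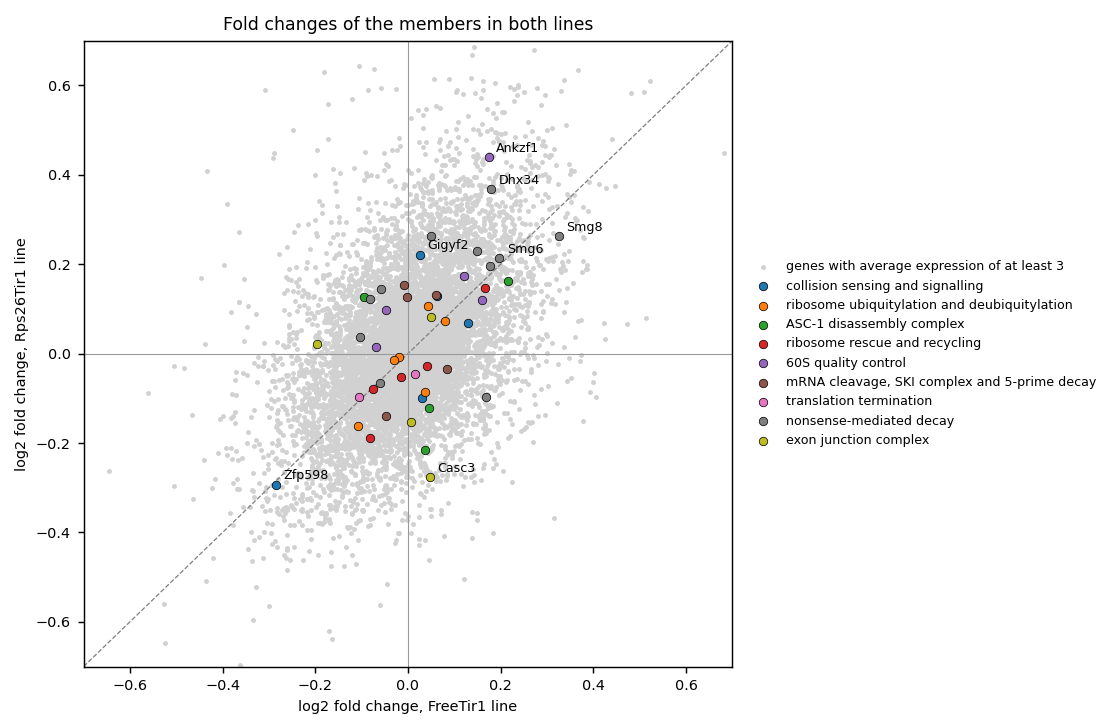
Deposited log2 fold change in the FreeTir1 line (horizontal) and the Rps26Tir1 line (vertical) for the members, coloured by role, over all genes whose average expression was 3 or more (grey); genes beyond 0.7 in either direction are not drawn, and the dashed line marks equal values. Zfp598 lies on the dashed line, Ankzf1 and Gigyf2 above it and Casc3 below it.

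NMD factors were mostly positive in both lines. For Rps26Tir1, 9 of 11 had positive values and the median was 0.20, and in the FreeTir1 line 7 of 11, with a median of 0.15, in the authors' deposited table; over all genes the share was 53.0% and 48.6%. Dhx34, a helicase that promotes the activation of UPF1, stood at 0.37 for Rps26Tir1 in the authors' deposited table, with an interval from 0.04 to 0.70 and adjusted p = 0.240. Smg6, the endonuclease that cuts NMD targets near the stop codon, was at 0.21 with an interval from 0.01 to 0.41 for Rps26Tir1, and the authors' deposited table gives adjusted p = 0.261. With the length trend removed its value was 0.12 (adjusted p = 0.612) and the unadjusted call was lost. Its FreeTir1 value in the authors' deposited table was 0.20. The lines differed by 0.02 for Smg6, with an interval from -0.27 to 0.30.

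The UPF1 kinase complex and UPF1 itself had positive values in both lines, while Upf2 differed in sign between them. Smg1, the kinase, stood at 0.18 for FreeTir1 and 0.20 for Rps26Tir1 in the authors' deposited table. Smg8, a subunit of the kinase complex, was at 0.33 in the FreeTir1 line of the authors' deposited table, with an unadjusted p of 0.0365 and adjusted p = 0.651, and at 0.26 in the Rps26Tir1 line. Smg9, the other subunit, was at 0.05 and 0.26 in the FreeTir1 and Rps26Tir1 lines of the authors' deposited table. Upf1, the central helicase, stood at 0.15 and 0.23, and Upf2, the adaptor that stimulates it, at -0.08 and 0.12 in the same columns of the authors' deposited table. The adjusted p-values of these 5 for Rps26Tir1 in the authors' deposited table ran from 0.332 to 0.629.

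Smg5, which helps dephosphorylate UPF1 and recruit decay enzymes, was at -0.06 for FreeTir1 and 0.14 for Rps26Tir1 in the authors' deposited table. The paralogues Upf3a and Upf3b, which link UPF2 to the exon junction complex, were at -0.07 and 0.04 for Rps26Tir1 in the authors' deposited table. Nbas, a factor in NMD at the endoplasmic reticulum, was at 0.17 for FreeTir1 and -0.10 for Rps26Tir1 in the authors' deposited table. The mRNAs of Upf1, Upf2, Upf3b, Smg1, Smg5 and Smg6 are themselves known NMD substrates. In the Rps26Tir1 line 6 of these 6 were positive, at 0.04 to 0.23, and in the FreeTir1 line 3 of 6, at -0.10 to 0.20, in the authors' deposited table. Over all genes 53.0% and 48.6% were positive. The 6 transcripts had a median length of 4896 bases, against 2881.5 for all genes, and 5 of 6 were longer than that. Removing the length trend took their Rps26Tir1 median from 0.17 to 0.08, with 6 of 6 still above 0.

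Length moved with these values. Across all 13504 genes, Spearman's rho between the length of the transcript and the fold change was 0.153 for FreeTir1 and 0.206 for Rps26Tir1, a description across genes, which are not independent replicates. The NMD transcripts had a median length of 4448 bases, against 3449 for the 47 members and 2881.5 for all genes, and 8 of 11 were longer than the median of all genes. With the running median of the fold change over length removed, 9 of 11 stayed above 0 in the Rps26Tir1 line but their median went from 0.20 to 0.10, below the 0.11 of the 60S quality control factors. NMD factors with a positive difference between the lines went from 8 of 11 to 6. Before that step 54.1% of all genes had a positive difference. In the FreeTir1 line the median went from 0.15 to 0.08, with 7 of 11 above 0. The same step left 3 of the 47 members, Ankzf1, Casc3 and Zfp598, with an unadjusted p under 0.05 in the Rps26Tir1 line in place of 6.

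**Figure D3:**
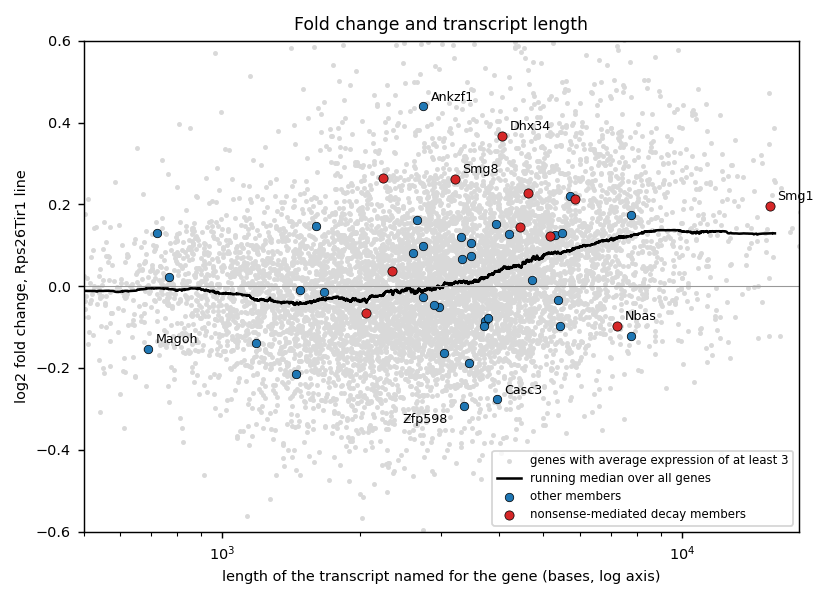
Deposited log2 fold change in the Rps26Tir1 line against transcript length on a log axis, for NMD members (red), the other members (blue) and genes whose average expression was 3 or more (grey), with the running median over genes of neighbouring length (black line). The line rises with length, and most NMD members lie above it, with Nbas at -0.10 and Upf3a at -0.07 below.

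Exon junction complex genes did not share a direction. Casc3, an outer component of the complex, stood at -0.28 for Rps26Tir1 in the authors' deposited table, with an interval from -0.53 to -0.02 and adjusted p = 0.250, and at 0.05 in the FreeTir1 line. Its difference between the lines, -0.32 with a standard error of 0.178 (adjusted p = 0.891), was the largest in absolute size among the 47 members. Its interval, from -0.69 to 0.04, included 0. Exons of other gene models, Msl1 on the same strand among them, cover 12.5% of the Casc3 transcript, and Msl1 stood at 0.09 for Rps26Tir1 in the authors' deposited table. Rbm8a, encoding the core subunit Y14, was at 0.08 there and is uncertain too, with 16.4% of its 31-base stretches in transcripts of other genes.

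Magoh and Magohb encode the partner of Y14 and are shown because their proteins are nearly the same while their mRNAs can be told apart. Over 146 residues compared, the encoded proteins differ at 1, whereas their coding sequences have 82 mismatches in 438 bases. The last 150 coding bases before the stop codon are given, with the 27 mismatched bases in capitals, from GENCODE M21 (GRCm38, chromosome 4 for Magoh and 6 for Magohb).
Magoh: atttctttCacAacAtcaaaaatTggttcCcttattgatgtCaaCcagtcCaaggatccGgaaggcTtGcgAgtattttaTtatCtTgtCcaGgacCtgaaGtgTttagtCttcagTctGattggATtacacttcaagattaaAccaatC
Magohb: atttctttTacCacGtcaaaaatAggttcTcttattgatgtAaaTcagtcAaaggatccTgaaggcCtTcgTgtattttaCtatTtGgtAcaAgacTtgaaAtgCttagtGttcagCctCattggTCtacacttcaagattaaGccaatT
The longest run of identical bases between the coding sequences is 17, and neither transcript shares a 31-base stretch with another gene. Magoh stood at 0.0076 for FreeTir1 and -0.15 for Rps26Tir1 in the authors' deposited table, and Magohb at -0.20 and 0.02. Rps26Tir1 minus FreeTir1 gave -0.16 for Magoh, with an interval from -0.44 to 0.12, and 0.22 for Magohb, with an interval from -0.15 to 0.58. The paralogues thus had opposite signs of that difference, and each interval included 0.

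Levels were compared per length, as the average expression of the authors' deposited table minus log2 of the transcript length in kilobases. Whether the deposited average was already scaled by length is not given in the sources used here. On this scale the members ran from 0.07 for Nbas to 6.76 for Rnf10. The median over the 47 was 3.01, against 2.28 for all genes and 3.38 for the 8633 with average expression of 3 or more. Rnf10, Magoh, Rbm8a and Etf1 were the highest, at 6.76, 6.53, 6.36 and 6.33 on this scale. The lowest after Nbas were the helicase genes Ascc3, Skiv2l and Dhx34, at 0.63, 0.66 and 1.18. Magoh lay above Magohb, which was at 3.40, and Smg5, at 4.83, was the highest of the NMD factors. No error can be put on these levels, because values per library were not used here. Of the 47 members, 44 had in the authors' deposited table an average expression of 3 or more, and Pelo at 2.61, Skiv2l at 2.65 and Nbas at 2.92 lay below.

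Members' values were correlated between the lines. Over the 47 members Pearson's r between the fold changes of the lines was 0.56 and Spearman's rho 0.54. Over all 13504 genes the values were 0.061 and 0.27. With average expression of 3 or more they were 0.60 and 0.57 over 44 members, and 0.47 and 0.46 over 8633 genes. The points share the authors' model and their transcript features, and these are descriptions across genes. The sign was the same in both lines for 28 of the 47 members (59.6%), against 62.2% of all genes. Among those with average expression of 3 or more it was the same for 61.4% of 44 members and 66.7% of 8633 genes.

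Partner genes outside the list of members were described in the same way, as 64 genes in 5 lists (Slc7a11 was not analysed here). In the Rps26Tir1 line 4 of 64 (6.25%) had an unadjusted p under 0.05 in the authors' deposited table, and in the FreeTir1 line 3 (4.69%). For the difference between the lines 2 did (3.12%). These shares were below those of all genes given above. Among the 8633 genes with average expression of 3 or more, the share for the difference was 2.99%, near that of the partner genes. Of the 64, 0 passed adjusted p of 0.05. Dcp2, the mRNA decapping enzyme, was the partner gene with the smallest p in the Rps26Tir1 line, at 0.42 with an interval from 0.17 to 0.68, and the authors' deposited table gives adjusted p = 0.0742. It stood at 0.27 in the FreeTir1 line of the authors' deposited table, and its transcript is 8616 bases long. Dcp1b, a decapping cofactor, was at -0.39 for FreeTir1 and 0.33 for Rps26Tir1 in the authors' deposited table. Its difference of 0.73 had an interval from 0.10 to 1.35 and adjusted p = 0.648.

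The exosome list holds subunits and nucleases of the complex that degrades mRNA handed over by SKI, and also Mtrex, a nuclear helicase cofactor, and Dis3l2, a nuclease that works apart from the exosome. Of its genes, 5 of 14 were positive in the authors' deposited table for Rps26Tir1 and 3 of 14 for FreeTir1, against 53.0% and 48.6% of all genes. With the length trend removed these counts were 4 and 5. Its medians were -0.09 and -0.04, and 0 of 14 had an unadjusted p under 0.05 in either line. Among the stress kinases and the GCN2 arm, which respond to collisions, 5 of 10 were positive for Rps26Tir1 and the median was 0.0022. For FreeTir1, 3 of 10 were positive, against 48.6% of all genes, and the median was -0.09. Gcn1l1, the gene of the GCN1 sensor of collided ribosomes, stood at 0.23 in the FreeTir1 line and at 0.11 in the Rps26Tir1 line. In the FreeTir1 line the authors' deposited table gives it an unadjusted p of 0.0494 and adjusted p = 0.683. RQC, rescue and termination partners had a median of -0.05 over 13 genes for Rps26Tir1 in the authors' deposited table, and NMD, exon junction and cap partners -0.02 over 18.

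Among 9 measured mRNAs known as NMD-sensitive, 6 were positive for Rps26Tir1 and 5 for FreeTir1 in the authors' deposited table. Over all genes 53.0% and 48.6% were positive. Atf4 and Atf3, stress-response transcription factors, stood at 0.30 and 0.45 for Rps26Tir1 in the authors' deposited table, their adjusted p being 0.102 and 0.117. Their FreeTir1 values in the authors' deposited table were -0.03 and 0.25. The difference between the lines for Atf4 was 0.33, with an interval from 0.05 to 0.62 and adjusted p = 0.644. Tbl2, which encodes a membrane protein of the endoplasmic reticulum, went the other way, at -0.21 for Rps26Tir1 in the authors' deposited table (adjusted p = 0.259). Map3k14, the NF-kappa-B-inducing kinase gene, stood at 0.70 for FreeTir1 and 0.22 for Rps26Tir1 in the authors' deposited table, and its adjusted p was 0.309 in the former.

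**Figure D4:**
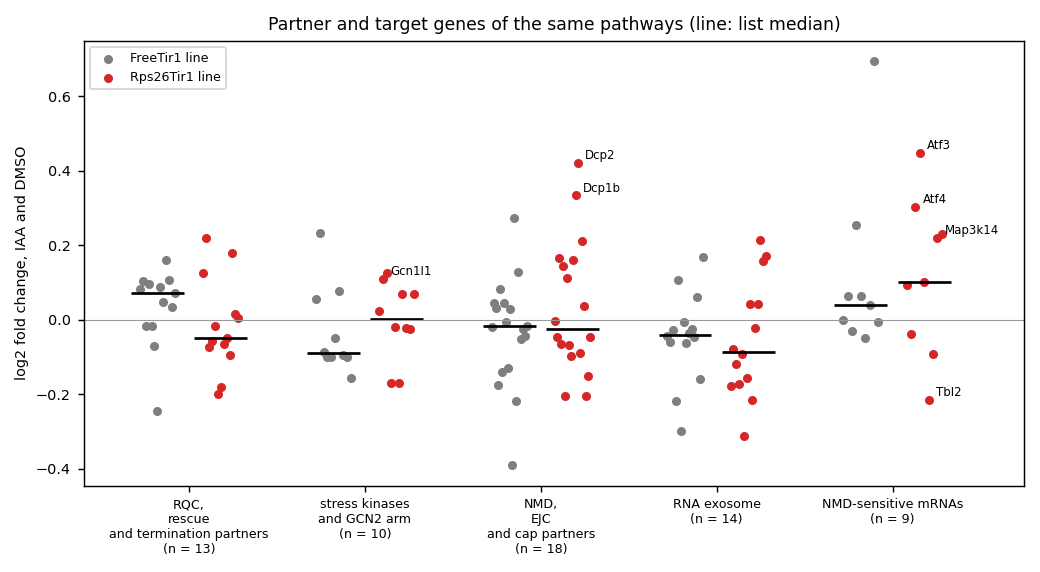
Deposited log2 fold change of 64 partner and target genes in 5 lists, for the FreeTir1 line (grey) and the Rps26Tir1 line (red), with the median of each list as a black line. Named genes had an unadjusted p under 0.05 in a line or in the difference between the lines, and Dcp2 at 0.42 and Atf3 at 0.45 were the highest in the Rps26Tir1 line.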

How the data were processed

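Per the labels' protocols, Trizol RNA was selected for poly(A) and made into TruSeq libraries for paired-end reads. The sources used here do not name the aligner, counting or model. The authors deposited a table of comparisons with a log fold change and an average expression, read as log2 from the column names of a limma table, and a p-value and adjusted p per line. The deposited average expression was the same in both columns, and the adjusted p-values imply adjustment over 15864 genes, more than the 13504 in the table.

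Standard errors were the fold change over the t-statistic of its p-value, with 29 degrees of freedom, the value between 8 and 60 that made the lines' errors most nearly proportional over genes whose average expression was 3 or more. The difference between the lines takes their errors as independent. Python 3.11.15 and scipy 1.17.1 were used, and the procedure was also run on simulated libraries fitted with limma 3.58.1 in R 4.3.3. Those libraries had independent noise and a comparison averaged over the fractions. As the authors' model is not named, that run does not check the worked-back errors of the real values. All 13504 transcripts matched GENCODE M21. Gcn1 was matched as Gcn1l1. Every member could be named, and partner genes at an unadjusted p under 0.05; Atg9a, Glb1l, Msl1, Col1a1, Thy1, Pdgfrb and Sparc were chosen after their values were seen. Members and lists were chosen with earlier results of these data known. Alternatives covered the adjustment, a minimum average expression of 3, centring, transcript length and the degrees of freedom.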

Additional observations from a re-analysis of the deposited data

How the results depend on the processing

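No member passed adjusted p of 0.05 in either line or in the difference between them under any alternative run. These were adjustment over the genes of the table, a minimum average expression of 3, centring on the median of all genes, removal of the length trend, and 20 or 60 degrees of freedom. With the length trend removed, members at an unadjusted p under 0.05 went from 6 to 3 in the Rps26Tir1 line and from 0 to 1 for the difference, where Casc3 stood at -0.37 with adjusted p = 0.839. Among all genes, the 222 that passed in the Rps26Tir1 line became 90 with the expression minimum and 131 with the length trend removed. For the difference the 1 gene became 0 with 20 degrees of freedom and 0 with the expression minimum, and 3 with 60. Among the 7 genes with an unadjusted p under 0.05 in a line, signs changed for Gigyf2 in the FreeTir1 line, at -0.0012 with the length trend removed, and for Smg6 in the difference, at -0.0026 when centred and -0.043 with the length trend removed. Removing the length trend also changed other signs: members with a positive difference went from 24 to 21, and ubiquitin enzymes with a positive FreeTir1 value from 3 to 5. No paired analysis was possible because the deposited table holds no value per library, and leaving out replicates was not run for the same reason. Depth per library is unknown.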
